A study of Rattus norvegicus with 4 samples.

Results

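The genes described here are 8 members of the BCL2 family, Bcl2, Bcl2l1, Mcl1, Bax, Bak1, Bad, Bid and Bcl2l11, together with Casp8, the gene of an initiator caspase. They are 9 of 16581 genes with a symbol on the array. They were chosen as a gene list, with earlier results of these data known. Casp8 is not an executioner caspase, and no executioner caspase is among the 9 genes. The executioner gene Casp6 is given further on from a separate list. A probe belonged to a gene when the RefSeq accession that the array gives for it, without its version, mapped to that symbol in the rat RefSeq table. This gave 17 probes, of which 3 genes had 1 probe, 5 had 2 and Bcl2l1 had 4.

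The arrays held RNA of NR8383, a rat alveolar macrophage line obtained by lung lavage of a normal animal, which grows partly attached and partly floating. After 20 passages the line was seeded for 48 h and exposed for 4 h to 9.25 µg/mL NiZnFe2O4, an oxide that combines iron with nickel and zinc. All 4 samples belong to this 1 exposed group, numbered as replicates 1 to 4 and called biological in the series' design, with 1 Cy3-labelled Agilent array each. The study's design sets these cells against untreated cells, whose arrays were not analysed here. The values below therefore show which of these transcripts the exposed cells held and how much the replicates differed, and none of them shows a change by the exposure.

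Proteins of the BCL2 family decide at the outer mitochondrial membrane whether a stressed cell survives. The guardians BCL2, BCL-XL (from Bcl2l1) and MCL1 hold the effectors BAX and BAK in check, and the BH3-only proteins BAD, BID and BIM (from Bcl2l11) bind the guardians or activate the effectors. Active BAX and BAK open pores that release cytochrome c, which leads to caspase activation. Caspase 8 acts below death receptors and cuts BID, which links the receptor route to the mitochondrial one. Macrophages are long-lived phagocytes.

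The sequences just before the transcription starts of Bcl2 and Bcl2l11 are shown because these 2 genes were among the 3 that did not reach the detection mark on all arrays, and because their windows lie outside the annotated gene. They were taken from RefSeq on assembly GRCr8, where 7 of the 9 genes had an entry (not Bax and Casp8). The windows of the other 5 genes with an entry overlap the annotated gene and are not printed. Capitals mark matches on either strand. The motifs searched were the TATA box with the letters TATAAA and the CCAAT box with the letters CCAAT. The GC box was searched as GGGCGG, the E-box as CACGTG, and the core of the cyclic AMP response element as TGACG. No match overlaps another in these windows. Each window covers the 250 bases before the start, read 5′ to 3′ along the gene's strand.
Bcl2, chr13:23366901-23367150, minus strand: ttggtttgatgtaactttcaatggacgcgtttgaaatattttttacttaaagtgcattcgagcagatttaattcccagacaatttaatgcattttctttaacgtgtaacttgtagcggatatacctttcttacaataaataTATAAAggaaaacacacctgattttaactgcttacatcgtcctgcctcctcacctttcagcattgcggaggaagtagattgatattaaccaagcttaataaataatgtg
Bcl2l11, chr3:135819792-135820041, plus strand: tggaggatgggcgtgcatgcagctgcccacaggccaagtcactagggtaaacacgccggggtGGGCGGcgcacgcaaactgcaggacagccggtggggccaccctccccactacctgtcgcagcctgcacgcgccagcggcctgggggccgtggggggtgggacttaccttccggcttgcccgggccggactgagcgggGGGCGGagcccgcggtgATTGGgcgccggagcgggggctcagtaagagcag

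The 2 windows differ in base composition. G and C make up 33.6% of the Bcl2 window, and 4.19% of the 33469 windows in the table had a lower share. For Bcl2l11 the share is 72%, above that of 94% of the windows, and the median of all windows is 51.2%. The Bcl2 window holds 7 CpG dinucleotides and the Bcl2l11 window 22. TATAAA occurs once in the Bcl2 window, with its first base 109 bases before the start, and 12.9% of all windows hold it. The Bcl2l11 window holds GGGCGG 188 and 51 bases before the start and CCAAT on the opposite strand at 34 bases. GGGCGG is found in 30.5% and CCAAT in 34% of all windows. Neither window holds CACGTG (5.59% of all windows) or TGACG (18.2%). These matches are descriptions of letters and were not tied to any expression value.

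Each array held 58717 spots for rat transcripts, and between 37.1% and 42.5% of them were well above background. This mark is a flag that the scanner software sets from the background noise. The lowest signal that carried it lay between 13.6 and 17.3 intensity units on the 4 arrays. A gene is called detected here when any of its probes carried the flag on all 4 arrays, which held for 38.7% of the 16581 genes. Of 15 macrophage markers 10 were detected, among them Cd68, Lyz2 and Spi1, while Marco, Cd163 and Adgre1 were on no array. None of 8 lung epithelial markers was detected, 1 of 7 measured lymphocyte markers was (Lck), 1 of 5 granulocyte markers (Camp) and 3 of 8 fibroblast and endothelial markers (Cdh5, Vwf and Pecam1). Vwf was detected through 1 of its 2 probes. Levels are log2 processed signals minus the 75th percentile over all probes of the same array. They depend on the probe's sequence, so levels of different probes are not set against each other. Precision is limited by there being 4 arrays.

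Of the 9 genes, 6 were detected on all 4 arrays (Mcl1, Bax, Bak1, Bad, Bid and Casp8), beside 38.7% of all genes. Since any probe is enough, a gene with more probes can pass more easily. The 9 genes had 17 probes, and all 16581 genes together had 21109. Bcl2l11 was well above background on some arrays. Bcl2 and Bcl2l1 were on none, as were 51.4% of all genes. By probe, 9 of the 17 carried the flag on every array and 6 on no array, with the other 2 in between. Of all 45598 probes 25.4% carried it on every array, but 24489 of these have no symbol here, unlike the 17. No spot of the 17 probes was saturated or carried an outlier flag.

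**Figure D1:**
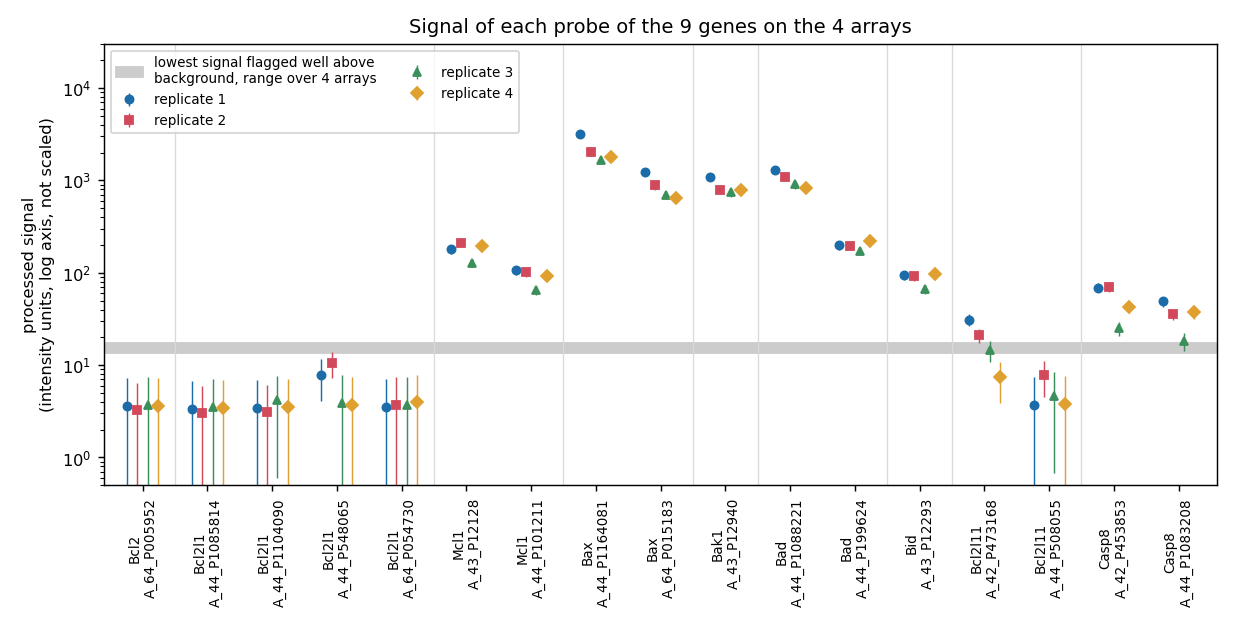
Processed signal in intensity units on a log axis, not scaled between arrays, for the 17 probes of the 9 genes, with 1 point per array (mean of the spots where a probe has 2) and bars for the error that the scanner software gives. The bars reach the bottom of the axis where the error is about as large as the signal, heights of different probes cannot be compared, and the 5 probes of Bcl2 and Bcl2l1 lie below the grey band of the lowest signals flagged well above background.

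Among the guardians, Mcl1 was the only one of the 3 that was detected, and both of its probes were. Probe A_43_P12128 gave signals of 179.9, 211.5, 127.5 and 197.2 intensity units on replicates 1 to 4. As levels these were 2.11, 2.69, 2.44 and 2.99, with a mean of 2.56 ± 0.38 (SD, n = 4). Replicate 1 was lowest and replicate 4 highest. The other Mcl1 probe, A_44_P101211, gave 105.8, 100.9, 65.2 and 91.8 units and a mean level of 1.58 ± 0.23 (SD, n = 4). Replicate 1 was lowest and replicate 4 highest on this probe as well, and each array deviated from the probe's mean in the same direction on both probes.

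Bcl2, the founding guardian, had 1 probe, A_64_P005952, with signals of 3.62, 3.24, 3.74 and 3.65 units. All are close to the lowest value that occurs on the arrays, between 2.69 and 3.42 units. Before the software's floor was applied, the background-subtracted signals were 2.72, 3.27, 0.480 and -3.23 units, and the looser flag of the software, positive and significant against background, was set on replicate 2 alone. Signals at the floor have no order, and only the bound holds that the transcript gave less than the lowest flagged signal on each array.

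Bcl2l1, the gene of BCL-XL, had 4 probes, and none was well above background on any array. Probes A_44_P1085814 and A_64_P054730 carry the same accession and gave signals between 2.99 and 3.94 units. A_44_P1104090, designed on a predicted transcript, gave 3.08 to 4.15 units, and its looser flag was set on replicate 3. A_44_P548065 gave 7.83, 10.5, 3.88 and 3.72 units. Its values on replicates 1 and 2 carried the looser flag and not the stricter one. No level is given for a gene in this state. That 4 probes of 1 gene were below the mark does not show that the transcript was missing from the cells.

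Both effectors were detected on all probes. Bax, whose protein moves from the cytosol to the mitochondrion, gave signals of 3177, 2048, 1667 and 1790 units on probe A_44_P1164081, each the mean of 2 spots. The levels were 6.25, 5.97, 6.15 and 6.18, with a mean of 6.14 ± 0.12 (SD, n = 4). The unscaled signals covered a 1.91-fold range with replicate 1 highest, and the scaled levels a 1.22-fold range with replicate 2 lowest. Probe A_64_P015183 gave 1234, 884, 690 and 650 units and a mean level of 4.81 ± 0.09 (SD, n = 4).

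The 2 Bax probes were each printed in 2 places on every array, which shows the error within an array. The paired spots differed by between 0.0046 and 0.26 log2 units, with a median of 0.03. Over 655 detected probes with 2 usable spots the median was 0.09. Bak1, which sits in the mitochondrial membrane, had 1 probe with signals of 1084, 784, 742 and 779 units. Its levels were 4.70, 4.58, 4.98 and 4.98, with a mean of 4.81 ± 0.20 (SD, n = 4). Replicates 3 and 4 lay above replicates 1 and 2.

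The BH3-only genes differed in whether they were detected. Bad, whose protein binds the guardians when it is not phosphorylated, was detected on both probes. Probe A_44_P1088221 gave signals of 1292, 1090, 906 and 820.3 units and levels of 4.96, 5.06, 5.27 and 5.05, with a mean of 5.08 ± 0.13 (SD, n = 4). Probe A_44_P199624 gave 197.9, 197.1, 171.4 and 223.2 units, with levels that went from 2.25 on replicate 1 to 3.17 on replicate 4 and a mean of 2.72 ± 0.39 (SD, n = 4). The 2 probes did not deviate alike: on replicate 4 the first lay 0.03 below its mean and the second 0.45 above. The spots around the second probe had a median deviation of 0.37 on that array, and its part in the difference was not tested.

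Bid, the substrate that caspase 8 cuts, had 1 probe with signals of 93.4, 92.1, 66.1 and 97.9 units. Its levels were 1.17, 1.49, 1.49 and 1.98, with a mean of 1.53 ± 0.34 (SD, n = 4). Replicate 1 was lowest and replicate 4 highest, as for Mcl1.

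Bcl2l11, the gene of BIM, lay across the detection mark. Probe A_42_P473168 gave 30.9, 21.2, 14.7 and 7.39 units and was well above background on replicates 1 and 2 only. All 4 values were positive and significant by the looser flag, so Bcl2l11 counts as a seventh detected gene under that rule, when 50.9% of all genes do. The scanner error was between 14.9% and 47.9% of these signals. Probe A_44_P508055 gave 3.70 to 7.79 units and was well above background on no array. The 4.18-fold range of the unscaled signals of the first probe therefore reaches into background, and no level is given.

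Casp8 was detected through 1 of its 2 probes. A_42_P453853 gave signals of 69.1, 69.5, 25.0 and 42.1 units and levels of 0.73, 1.09, 0.09 and 0.77, with a mean of 0.67 ± 0.42 (SD, n = 4). Replicate 3 was lowest. A_44_P1083208 gave 49.0, 35.7, 18.3 and 37.2 units and was well above background on every array except replicate 3, where it was lowest too. If all probes of a gene have to pass, Casp8 is lost and 5 genes remain, with 33.2% of all genes.

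The spread between replicates was set beside the error that the software gives for each spot. For bright spots that error is close to 10.0% of the signal, or 0.14 log2 units. The SD over replicates was 0.84 times this error for Bax probe A_44_P1164081, 0.60 times for the other Bax probe and 0.91 times for Bad probe A_44_P1088221. This held for the scaled levels only: the unscaled SDs of these 3 probes were 0.42, 0.42 and 0.29. With the normexp correction the SD was 0.24 for Bax and 0.19 for Bad. For these bright probes the software's error is nearly the same share of every signal, so the ratio divides the SD by almost a constant. The paired Bax spots differed by a median of 0.03 log2 units. A ratio under 1 therefore does not show that replicates differed less than spots of 1 array. The software's error does not measure differences between samples. The ratio was 1.39 for Bak1, 2.14 for Bid, 2.23 for Casp8 and 2.54 for Mcl1 probe A_43_P12128, and it was 2.68 for Bad probe A_44_P199624. Over 11568 probes detected on all arrays the median SD was 0.24 and the median scanner error 0.15.

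**Figure D2:**
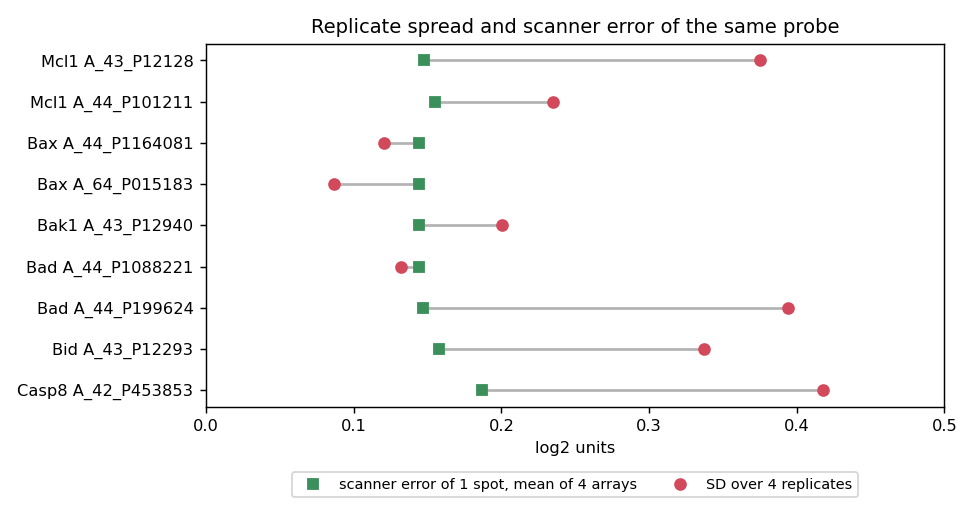
SD of the level over 4 replicates (red circles) and the scanner error of a spot averaged over the 4 arrays (green squares), both in log2 units, for the 9 probes well above background on all arrays. For these scaled levels both Bax probes and 1 Bad probe have an SD below their scanner error, and the other 6 lie above it.

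Among the 6418 detected genes the median SD was 0.23, and the 10th percentile was 0.10 and the 90th 0.43. The median over the 6 detected genes was 0.27, and it fell below the all-gene median in some of the other settings. Bax (0.12), Bad (0.13) and Bak1 (0.20) had a smaller SD than most genes, with 14.3%, 18.0% and 41.7% of genes below them. Bid (0.34), Mcl1 (0.38) and Casp8 (0.42) had a larger one, with 78.4%, 84.2% and 88.7% of genes below them. Each rank takes the gene's probe with the highest mean. The other Mcl1 probe had an SD of 0.23, close to the all-gene median, and the other Bad probe 0.39, above it. The other Bax probe (0.09) lay on the same side as the first. The sides of the all-gene median on which the ranked genes lay also turned under other processing. With the normexp correction the all-gene median was 0.189, and Bax (0.238) and Bak1 (0.240) lay above it, Bad (0.191) close to it and Bid (0.121) below. Without scaling it was 0.38, and Bax (0.42) lay above it and Bid (0.26) and Mcl1 (0.32) below. With the mean of all probes Bad (0.236) lay close to the all-gene median of 0.231. Casp8 was above the all-gene median in each of these settings. Dimmer genes varied more in general: the median SD was 0.29 for 1221 genes with a level under 1, 0.25 for 2292 genes from 1 to 3, 0.19 for 1728 genes from 3 to 5 and 0.18 for 1177 genes over 5. Casp8 falls in the first of these ranges, Mcl1 and Bid in the second, Bak1 in the third and Bax and Bad in the last.

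**Figure D3:**
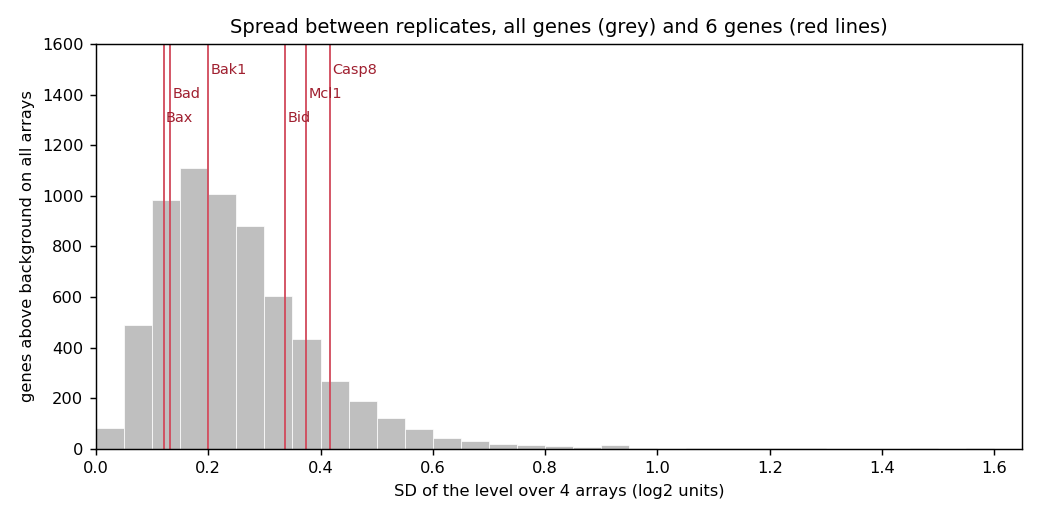
Number of genes (y axis) by the SD of their level over 4 arrays in log2 units (x axis, bins of 0.05) for 6418 detected genes in grey, with red lines at the SD of the 6 detected genes. In these scaled levels Bax, Bad and Bak1 lie left of the median of 0.23 and Bid, Mcl1 and Casp8 to the right of it. Each line takes the gene's probe with the highest mean, and the other Bad probe has an SD of 0.39 and the other Mcl1 probe 0.23.

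Replicate 4 lay above the gene's own mean for 5 of the 6 genes, as it did for 60.2% of all detected genes. The median deviation was 0.13 for the 6 genes and 0.06 for all detected genes. Replicate 1 lay below the mean for 4 of the 6, and for 59.0% of all detected genes, with medians of -0.12 and -0.06. Both counts depended on the processing. With the normexp correction replicate 4 was above the mean for 2 of the 6 genes and replicate 1 below it for 2. Without scaling the medians were -0.14 on replicate 4 and 0.36 on replicate 1. Mcl1 and Bid had replicate 1 lowest and replicate 4 highest, an order that 22.1% of all detected genes shared. Without scaling between arrays neither gene had this order: Mcl1 was highest on replicate 2 and lowest on replicate 3, and Bid was highest on replicate 4 and lowest on replicate 3. With the normexp correction Bid kept the order and Mcl1 did not. Casp8 had replicate 3 lowest, by 0.58 below its mean, and Bak1 had replicate 2 lowest, by 0.23 below its mean. None of the 6 genes had 1 array apart from the other 3 by Dixon's ratio, whose 95% critical value was passed by 4.91% of all detected genes.

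**Figure D4:**
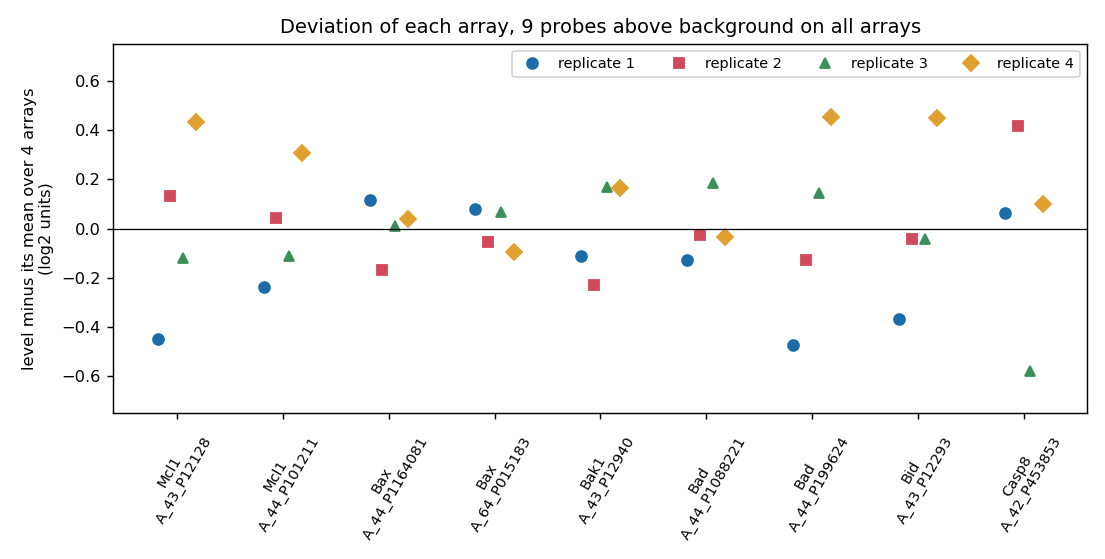
Level on each array minus the probe's mean over 4 arrays, in log2 units, for the 9 probes well above background on all arrays, with 1 symbol per replicate. Replicate 4 is highest and replicate 1 lowest on both Mcl1 probes, on Bad probe A_44_P199624 and on Bid, and replicate 3 is lowest for Casp8 at -0.58.

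The remaining genes of the apoptosis machinery were taken from lists. Of 56 listed genes 52 were measured. Of these, 31 (59.6%) were detected, beside 38.7% of all genes. A further 6 were well above background on some arrays and 15 on none, beside 51.4% of all genes on none. The same shares of all genes apply to the counts of each list below, which rest on few genes. Of 3 other guardian genes only Bcl2a1 was detected, which encodes the leukocyte guardian A1, at 2.67, 2.79, 2.46 and 2.54 (mean 2.61 ± 0.15, SD, n = 4). Bcl2l2 passed on 1 array and Bcl2l10 on none. Of 6 further effector and BH3-only genes 2 were detected. They were Bbc3, the gene of PUMA, at 3.80 ± 0.54 (SD, n = 4) with replicate 3 highest at 4.59, and Bmf. Bmf was detected through 1 of its 2 probes. Bok, Bik, Hrk and Pmaip1, the gene of NOXA, were on no array. Of 5 measured related mitochondrial genes Bcl2l12, Bcl2l14 and the mitophagy receptor genes Bnip3 and Bnip3l were detected and Bcl2l15 was not. Bcl2l13 had no probe tied to its symbol.

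Among the caspases, the executioner gene Casp6, whose protease cuts nuclear lamins, was detected. It stood at 1.58, 1.83, 1.58 and 1.58 (mean 1.64 ± 0.13, SD, n = 4), with replicate 2 highest. Without scaling replicate 1 was highest, at 124.1 units beside 116.2 on replicate 2. The initiator genes Casp9 and Casp2 were detected as well, Casp2 through 1 of its 3 probes. Casp9, the caspase of the apoptosome, was detected through 1 of its 2 probes. It stood at 0.31 ± 0.47 (SD, n = 4) with replicates 1 and 2 below 3 and 4. This order did not hold for the unscaled signals of 37.9, 31.2, 37.1 and 42.2 units. Of the inflammatory caspases Casp1 and Casp4 were detected and Casp12 was not.

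Of 8 genes for the apoptosome, the factors released from mitochondria and the outer membrane channels Vdac1 and Vdac2, 7 were detected. Cycs, which encodes cytochrome c, stood at 5.09, 5.07, 4.93 and 4.73 (mean 4.96 ± 0.17, SD, n = 4), with the reservation that its probes may bind transcripts of the gene's pseudogenes. Diablo, Htra2, Aifm1, Endog, Vdac1 and Vdac2 were the others. Apaf1, the scaffold that cytochrome c assembles into the apoptosome, was well above background on 1 array only, with signals of 11.9, 16.8, 10.4 and 12.2 units. Of 5 caspase inhibitor genes Xiap, Birc2 and Birc5 were detected, Birc3 passed on 1 array and Birc6 on none. Xiap, a direct inhibitor of executioner caspases, was detected through 1 of its 2 probes. It stood at 1.14 ± 0.33 (SD, n = 4) with replicate 3 highest at 1.59. Without scaling replicate 1 was highest, with signals of 77.3, 60.9, 70.7 and 55.4 units.

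On the death receptor side, where Casp8 acts, 4 of 9 measured genes were detected: the TNF receptor gene Tnfrsf1a, its adaptor gene Tradd and the kinase genes Ripk1 and Ripk3. Fadd, the adaptor that recruits caspase 8, was well above background on 3 of 4 arrays, all except replicate 3, with signals of 31.4, 19.9, 13.6 and 26.0 units. Casp8 was lowest on the same array. That array also had the lowest 75th percentile of spot signals (130 units) and the smallest share of flagged spots (37.1%). The Fadd signals are not scaled for this. Cflar, which encodes the caspase 8 inhibitor FLIP, was on no array, and neither were the ligand genes Faslg and Tnfsf10, while Fas passed on 1 array. The Cflar probe with the highest mean gave 16.4, 15.8, 3.77 and 14.0 units. Except on replicate 3 these lie near the lowest flagged signals of 13.6 to 17.3 units. Faslg gave 3.66 to 5.74 units and Tnfsf10 2.86 to 3.47 units. Tnfrsf10b and Mlkl had no probe tied to their symbol. Of 10 measured regulators of the 9 genes, Fbxw7, Akt1, Ywhaz, Ywhae and Dynll1 were detected, Fbxw7 through 1 of its 2 probes. Usp9x passed on some arrays, and Foxo3, Mapk8, Pim1 and Pim3 on none. Huwe1, a ligase that marks MCL1 for degradation, was the one without a probe here.

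**Figure D5:**
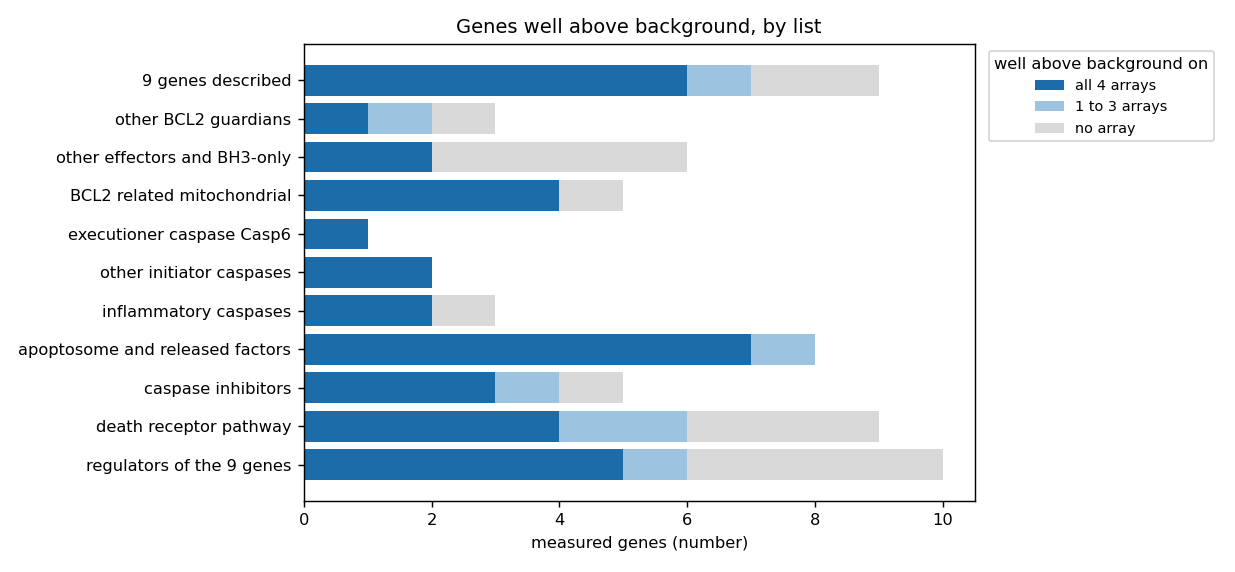
Number of measured genes (x axis, from 0) per list, divided into those well above background on all 4 arrays, on 1 to 3 arrays and on no array. All arrays were passed by 6 of the 9 genes described, 7 of 8 in the apoptosome list (which holds Vdac1 and Vdac2), 4 of 9 in the death receptor list, 5 of 10 regulators, 2 of 6 other effector and BH3-only genes and 1 of 3 other guardians, where 38.7% of all genes passed.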

How the data were processed

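Agilent one-colour arrays of 4 samples of 1 group were read as deposited. The authors read the scans with Agilent Feature Extraction 11.0.1.1 (file headers, submitters' processing notes). What they deposited is a linear intensity for each spot, background-subtracted and detrended within the array per the file headers, with a floor at low values and no scaling between arrays, with an error per spot and 0 or 1 flags. All arrays lie on 1 slide with 1 scan time per the headers, so slide could not act as a batch.

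Control spots and outlier flagged spots were left out. The remaining spots of a probe were averaged as log2 signals, giving 45598 probes. For a probe to pass on an array, a share of 0.5 or more of its spots had to be flagged well above background. Accessions were matched to GRCr8 RefSeq transcripts, which named 21109 probes by 1 symbol and 0 by several, and left 24489 unnamed here. Each gene takes the level of whichever of its probes has the highest mean, after subtraction of the array's 75th percentile. With 1 group no comparison between groups was tested and no p-value is given. Dixon's ratio was used to mark a gene with 1 array apart. Values over 4 replicates are mean ± SD. Neighbouring spots are single-spot probes within 5 rows and columns, flagged on at least 3 arrays, and their median deviation is from the median of the other arrays.

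Alternatives were the looser flag, a pass on 3 of 4 arrays, a pass by every probe, the percentile over detected probes, quantile normalization, no scaling, normexp with an offset of 50 on the median signals (limma 3.58.1, R 4.3.3), the mean of all probes, outlier spots kept, local trend removed, dim probes not filtered, and each replicate left out in turn. Counting each probe on its own was added after seeing the data. Every one of the 9 genes is named with each probe. The other lists are named by passing state, with levels for genes picked by role: Casp6, Casp9, Apaf1, Cycs, Xiap, Cflar, Fadd, Bbc3, Pmaip1 and Bcl2a1, and no level for one that is not detected. The 9 genes, the lists and these rules were chosen with earlier results of these data known. Some listed genes are not reported here and are left out of the counts. The steps were tested on simulated data. Python 3.11.15, numpy 2.4.6, pandas 2.3.3 and matplotlib 3.10.9 were used.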

Additional observations from a re-analysis of the deposited data

Results flagged for a closer look

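Of the 9 detected probes of the 9 genes and the 6 detected genes with a level chosen by role, 15 values in all, 1 passed the 95% critical value of Dixon's ratio, which chance passes in about 1 in 20. It was Casp6, an executioner caspase gene, with a Dixon ratio of 0.983. Replicate 2 lay at 1.83 and the others at 1.58 each, a deviation of 0.19 log2 units from the mean. The ratio stayed above the critical value with outlier spots kept (0.995) and fell below it without scaling (0.116), with the normexp correction (0.238), after removal of the local trend (0.317), with the percentile taken over detected probes (0.631) and with quantile normalization (0.814).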

How the results depend on the processing

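The count of 6 detected genes among the 9 lay between 5 and 7 in all 8 alternatives run for it. It was 7 with the looser flag and 5 where every probe had to pass. The other alternatives named the same 6 genes and could not have done otherwise. A pass on all arrays also holds on fewer arrays, and Bcl2l11 passed on 2 arrays and Bcl2 and Bcl2l1 on none. No spot of the 9 genes carried an outlier flag. The count of 31 other apoptosis genes lay between 26, where every probe had to pass, and 38, with the looser flag. Of all genes, 33.2% and 50.9% passed under these 2 settings. The median SD of 0.27 ranged from 0.20 to 0.38, and without 1 replicate from 0.20 to 0.27. The 0.38 came with dim probes not filtered, which takes in signals at the floor. As reported, the median lay above that of all detected genes (0.23). It lay below with the percentile over detected probes (0.210 beside 0.223), without scaling (0.307 beside 0.385) and with local trend removed (0.198 beside 0.238). It was also below without replicate 3 (0.199 beside 0.218) and without replicate 4 (0.197 beside 0.200). In the other alternatives with an all-gene value it stayed above. The count of genes with 1 array apart, 0 as reported, was 2 without scaling (Bak1 and Bid) and 0 in the other alternatives run for it. Levels moved by more than 1 SD for all 6 genes under the percentile over detected probes and without scaling, which change the reference itself, and for 5 of 6 with the normexp correction. They moved for 3 of 6 with the mean of all probes, and for none with quantile normalization or the local trend removed. None moved without any 1 replicate either, but leaving out 1 replicate cannot shift a mean by more than 1 SD. None moved with outlier spots kept, a setting that changed no spot of the 9 genes and acted only through the array's percentile. These last settings therefore did not test the levels. A block for the slide could not be fitted because there is 1 slide. No paired analysis was possible because there is 1 group. Signals below 13.6 to 17.3 units, the lowest that were flagged, could not be ordered.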

Other observations

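Htra2, the gene of a mitochondrial serine protease that is released with cytochrome c, was picked after its values were seen. It stood at 4.45, 3.33, 4.29 and 4.34 on replicates 1 to 4 (Dixon ratio 0.860, past the 95% critical value), with replicate 2 low by 0.78 below the mean. The 17 neighbouring spots on that array had a median deviation of -0.49. After removal of the local trend, Htra2 had an SD of 0.21 in place of 0.52 and a Dixon ratio of 0.436. Other settings also took this ratio below the critical value. It was 0.772 under quantile normalization, 0.583 for unscaled signals and 0.543 after normexp correction. A percentile from detected probes alone gave 0.772. The SD of Htra2 lay between 0.50 and 0.61 in these other settings. The ratio stayed past the critical value when outlier spots were kept (0.857). A Bcl2l1 probe, A_64_P054730, has its spot in the same part of the array, with a median deviation of its neighbours of -0.46 on replicate 2, and its own signals were at the floor on all 4 arrays. When the local trend was removed, the SD of Mcl1 went from 0.38 to 0.25 and that of Bak1 from 0.20 to 0.12. That of Bid (0.34) and of Casp8 (0.41) stayed close to the reported values. The median SD of the 6 detected genes went from 0.27 to 0.20, and that of all detected genes from 0.23 to 0.24.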
